A study of Mus musculus with 4 samples.

Results

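The cytosolic ribosomal protein genes encode the proteins of the small and large subunits of the ribosome that works outside the mitochondria. Members were chosen by gene symbol (Rpl or Rps, a number and, where present, the ending a, al, x, l or l1), together with Rplp0, Rplp1, Rplp2 and Rpsa. The rule used no measured value, and it found 87 of the 50600 genes in the files, 33 named for the small subunit and 54 for the large. In the gene types of GENCODE M21, 83 of them were protein-coding and 4 (Rpl6l, Rpl32l, Rps12l1 and Rps4l) were processed pseudogenes. The study sequenced RNA from regulatory T cells of the C57BL/6NJ mouse strain, primary cells that restrain immune responses, in 4 biological replicates that form a single group. No gene was edited and no comparison group was used here, and the labels give neither age nor sex. The names inside the file headers carry the words for activation and 72 h, and the labels link a protocol for differentiating CD4+ T cells, both of which describe cells kept in culture. The assay is called total RNA-seq while the linked library protocol is for polyadenylated RNA, and the labels give all 4 replicates the same donor identifier, so the p-values measure the spread between these 4 libraries.

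Each ribosome holds 1 copy of nearly every ribosomal protein, apart from the acidic stalk proteins Rplp1 and Rplp2, which are present in several copies. The transcripts are short, abundant and stable, and most begin with a terminal oligopyrimidine tract, a run of C and T that starts with C at the first transcribed base. The protein Larp1 and the kinase mTOR set how much these transcripts are translated, and T cells are known to raise ribosome production when they are activated.

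The 4 libraries held 121477975, 62472060, 73690296 and 51460018 counts in replicates 1 to 4, so replicate 1 was the deepest. All 6 regulatory T cell markers, with Foxp3 at 448 ± 27.8 TPM (SD, n = 4), and all 6 general T cell markers were at 1 TPM or more in every library. Of the CD8 T cell markers, Cd8a had 0.243 TPM on average and Cd8b1 11.5 TPM. The summed level of the 5 B cell markers was between 2.91 and 4.32 TPM, and Cd79b (mean 3.14 TPM) was at 1 TPM or more in every library. That of the 5 macrophage and monocyte markers was between 6.60 and 8.20 TPM. Among them Cd68 (mean 4.51 TPM) and Adgre1 (2.55 TPM) were at 1 TPM or more in every library, and Lyz2 had 0 counts.

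The starts of the genes were read first, because the terminal oligopyrimidine tract is the best known shared feature of these transcripts. RefSeq promoter entries (GRCm38.p6, 250 bases before to 50 after the annotated start) matched 64 members through 76 entries, and 23 members had no entry. Entries of 1 gene overlap or lie close together, and 10 members had more than 1. The following windows span 15 bases before to 15 after the start, 5′ to 3′ on the gene's strand, with a run of at least 5 C or T that begins with C within 5 bases of the start in capitals. They show members with a long run that crosses the start or begins at it.
Rpl15: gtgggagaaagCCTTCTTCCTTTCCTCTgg
Rpl35: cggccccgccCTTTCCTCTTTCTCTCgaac
Rps10: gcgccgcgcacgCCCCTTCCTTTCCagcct
Rps6: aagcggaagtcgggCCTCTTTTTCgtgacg
Rps18: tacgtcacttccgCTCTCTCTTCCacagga
Rpl38: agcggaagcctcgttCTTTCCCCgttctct
Rps15a: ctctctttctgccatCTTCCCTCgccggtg
The windows lie at chr14:18270972-18271001 (minus strand) for Rpl15, chr2:39005117-39005146 (minus) for Rpl35, chr17:27635230-27635259 (minus) for Rps10 and chr4:86857353-86857382 (minus) for Rps6. Those of Rps18, Rpl38 and Rps15a lie at chr17:33955651-33955680 (minus), chr11:114668565-114668594 (plus) and chr7:118116133-118116162 (minus). The run was 17 bases long in Rpl15, 16 in Rpl35 and 13 in Rps10, and in Rpl38 and Rps15a it began exactly at the annotated start with 8 bases.

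Other members had no such run that begins within 5 bases of the start, and 3 of those shown are among the most abundant transcripts described below.
Rplp0: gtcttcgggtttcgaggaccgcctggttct
Rpl4: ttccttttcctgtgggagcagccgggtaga
Rpl41: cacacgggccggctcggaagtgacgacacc
Rpl24: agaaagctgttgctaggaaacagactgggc
These windows lie at chr5:115559452-115559481 (plus) for Rplp0, chr9:64173372-64173401 (plus) for Rpl4, chr10:128549154-128549183 (minus) for Rpl41 and chr16:55966260-55966289 (plus) for Rpl24. The window of Rpl4 does hold a run of C and T, which lies further before the annotated start than the rule allows. A missing run says only that none begins within 5 bases of the annotated start, and the starts used by these cells were not measured.

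A run of at least 5 pyrimidines within 5 bases of the start was found in 32 of 76 member entries (42.1%) and in 6027 of all 32851 promoter entries (18.3%). Counted only from a C at the start base itself, also where the run began before it, the shares were 18.4% of member entries and 2.51% of all entries. With at least 7 pyrimidines within 5 bases they were 31.6% and 6.48%. Levels were compared in protein-coding members other than the second genes of the paralog pairs named below. The median by coding length was 1109 TPM in the 27 with a run and 1145 TPM in the 29 with an entry but no run. The ranges, 335 to 2908 and 52.7 to 12682 TPM, overlapped. By merged exon length, the main scale below, the medians were 906 and 868 TPM, so the order turned.

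Short motifs were searched on both strands of the same entries. The motif CCGGAAG, the core of sites bound by ETS factors, was in 34.2% of member entries and 8.86% of all entries. CTCGCGAGA was in 10.5% of member entries and 0.676% of all entries. AAGATGGC, a core of YY1 sites, was in 10.5% and 2.75%, GGGCGG, a core of Sp1 sites, in 59.2% and 35.7%, and TATAAA in 10.5% and 13.6%. A match is a description of the letters and not a measured site. The windows below, at chr4:86857398-86857427 (minus strand) for Rps6, chr7:109519163-109519192 (plus) for Rpl27a and chr10:128549206-128549235 (minus) for Rpl41, show in capitals CCGGAAG for Rpl41 and CTCGCGAGA for the other two.
Rps6: gccggctgttCTCGCGAGAacttagagcgc
Rpl27a: cgcctgctacCTCGCGAGActtcgtgagct
Rpl41: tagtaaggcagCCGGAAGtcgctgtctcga

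Ribosomal protein transcripts were among the most abundant of these cells. Members took 5.06, 4.64, 5.31 and 5.17% of all counts in replicates 1 to 4 (mean 5.05% ± 0.286, SD, n = 4), lowest in replicate 2. Levels per length are given as TPM, a transcript's share of its library after division by length, from the counts and each gene's merged exon length (the bases covered by any exon of the gene). On this scale members made up 10.9% ± 0.558 of all transcripts. The share depended on the length used, with 13.6% by principal transcript length and 11.7% by coding length. By merged exon length, 84 of the 87 members were at 1 TPM or more in every library, and 80 were at 10 TPM or more. The median over members of the mean TPM was 906, beside 1.04 for all 21764 protein-coding genes. Among the 50 highest protein-coding genes 23 were members, and among the 100 highest 39 were.

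**Figure D1:**
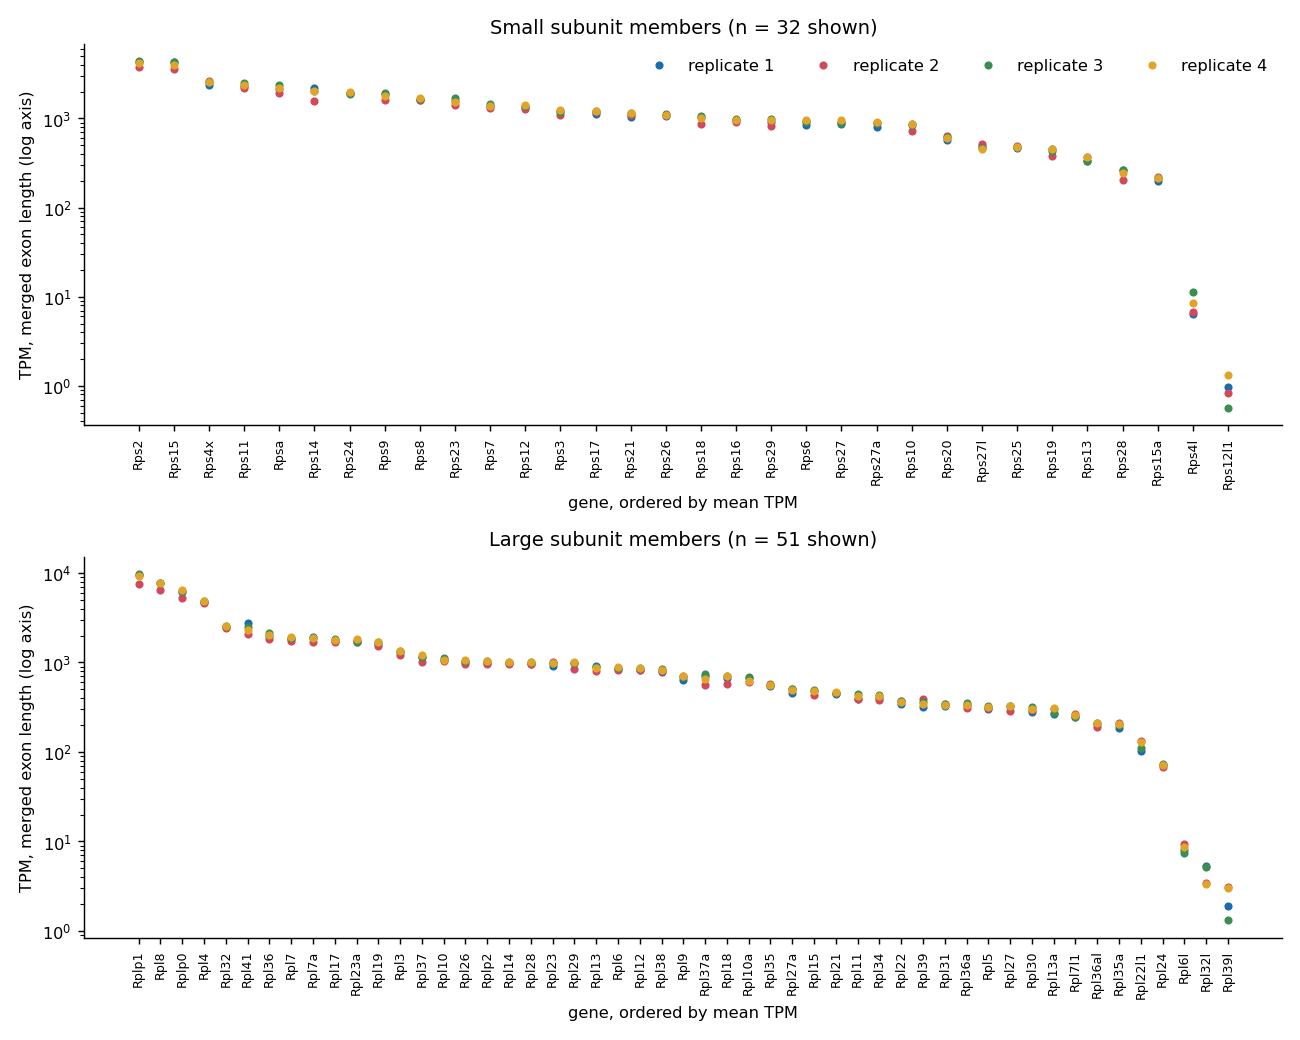
Level of 83 members in the 4 libraries, TPM by merged exon length on a log axis, small subunit above and large subunit below, 1 point per library, with genes ordered by mean TPM. Rplp1 (9013 TPM), Rpl8 (7417 TPM) and Rplp0 (6040 TPM) lead, the points of a gene lie close together, and the genes at the far right of each panel are pseudogenes and paralogs below 10 TPM.

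By merged exon length the stalk genes stood at both the top and the middle of the order. The stalk is the flexible arm of the large subunit that recruits the translation factors which hydrolyse GTP. Rplp1 (ENSMUSG00000007892.8, chr9:61913284-61914542 in mm10) measured 9532, 7553, 9730 and 9237 TPM in replicates 1 to 4 and was the highest member by merged exon length. Rplp0 (ENSMUSG00000067274.10, chr5:115559467-115563727), which anchors the stalk, measured 6170, 5246, 6305 and 6441 TPM. Rplp2, the partner of Rplp1, measured 985, 962, 1039 and 1046 TPM. All 3 genes were lowest in replicate 2. Rplp2 has a merged exon length of 2072 bases for a coding length of 345, and by coding length its level was 2039 ± 87.2 TPM, against 4431 ± 507 for Rplp1. The rank of Rplp2 moved from 35 by merged exon length to 15 by coding length.

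Between Rplp1 and Rplp0 came Rpl8, a protein close to the catalytic centre of the ribosome, with 7661, 6534, 7670 and 7803 TPM. The fourth was Rpl4, which lines the tunnel where the new protein leaves, with 4720, 4673, 4917 and 4883 TPM. By merged exon length the order Rplp1, Rpl8, Rplp0, Rpl4 held in 4 of 4 libraries, although the ranges of Rplp1 and Rpl8 overlapped across libraries. The 5 highest members, which include Rps2 at 4146 ± 278 TPM, together held 28.8% ± 0.855 of the members' summed TPM.

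Other large subunit genes with known roles lay lower. Rpl5 and Rpl11, whose proteins form a complex with ribosomal RNA that binds Mdm2 and so stabilises p53, were both well under the median of all members. Rpl5 measured 304, 314, 327 and 317 TPM, and Rpl11 393, 392, 441 and 422 TPM. Rpl10, which is added late and is needed for the subunits to join, measured 1077, 1031, 1113 and 1077 TPM. Rpl38, known for its part in translating Hox transcripts, measured 782, 795, 837 and 831 TPM. Of these 4 genes Rpl11 had the widest spread, an SD of 5.71% of its mean. Rpl10 and Rpl11 were lowest in replicate 2, and Rpl5 and Rpl38 in replicate 1.

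Rpl41 encodes the shortest ribosomal protein, a peptide of 25 codons with the stop codon counted out in the annotation. It measured 2747, 2106, 2494 and 2319 TPM by merged exon length, highest in replicate 1 and lowest in replicate 2. By coding length, 75 bases, its level was 12682 ± 1471 TPM and the highest of all members. A count of fragments divided by a length far under that of a fragment overstates the level, so this value depends on the scale.

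In the small subunit Rps2, a protein at the mRNA entry channel, led with 4289, 3751, 4380 and 4163 TPM. Rpsa, also known as the laminin receptor, measured 2165, 1924, 2360 and 2219 TPM. Both were lowest in replicate 2 and highest in replicate 3. Rps3, which sits at the mRNA entry site, measured 1199, 1098, 1184 and 1251 TPM. Rps6, the substrate of the S6 kinases, measured 848, 926, 916 and 956 TPM. It was lowest in replicate 1, unlike Rps3. Rps27a, which is made as a fusion with ubiquitin, measured 801, 890, 885 and 908 TPM, and Rps19, mutated in some patients with Diamond-Blackfan anaemia, 459, 382, 432 and 452 TPM.

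The lowest members that are not second genes of a paralog pair were mostly annotated pseudogenes. Rps12l1 had 14, 6, 5 and 8 counts (0.928 ± 0.317 TPM), Rpl32l 76, 25, 45 and 20 counts, and Rpl6l 252, 147, 144 and 114 counts. Every one of the 100-base windows of Rps12l1 also occurs in another gene, and its counts could belong elsewhere. Among the protein-coding genes, Rpl24 (ENSMUSG00000098274.7, chr16:55966275-55971435), whose protein forms a bridge between the subunits, was lowest with 71.4, 68.5, 74.0 and 72.2 TPM. The next, Rpl35a, stood at 201 ± 10.7 TPM. For Rpl24, 47.0% of the merged exons and 71.5% of the principal transcript are also covered on the same strand by another annotated gene, Gm28037, which had 0 counts, and the file headers show no option for counting a read in more than 1 gene. The part of this overlap in the low value of Rpl24 was not tested.

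The order of the members depended on which length divided the counts. The merged exon length of a member was a median of 3.58 times its coding length in the principal transcript, from 1.12 to 16.1 times, against a median of 2.40 over all protein-coding genes. Of the 87 members, 64 had at least 1 annotated transcript with a retained intron, which adds intron bases to the merged length. In the 76 protein-coding members outside the second genes of the pairs, the upper quartile was 3.61 times the lower by merged exon length and 2.07 times by coding length. Across these genes, which are not independent replicates, log2 TPM by merged length fell with the log2 ratio of the lengths (r = -0.63, n = 76), and log2 TPM by coding length did not (r = 0.06). The first value shares the merged length between both axes.

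**Figure D2:**
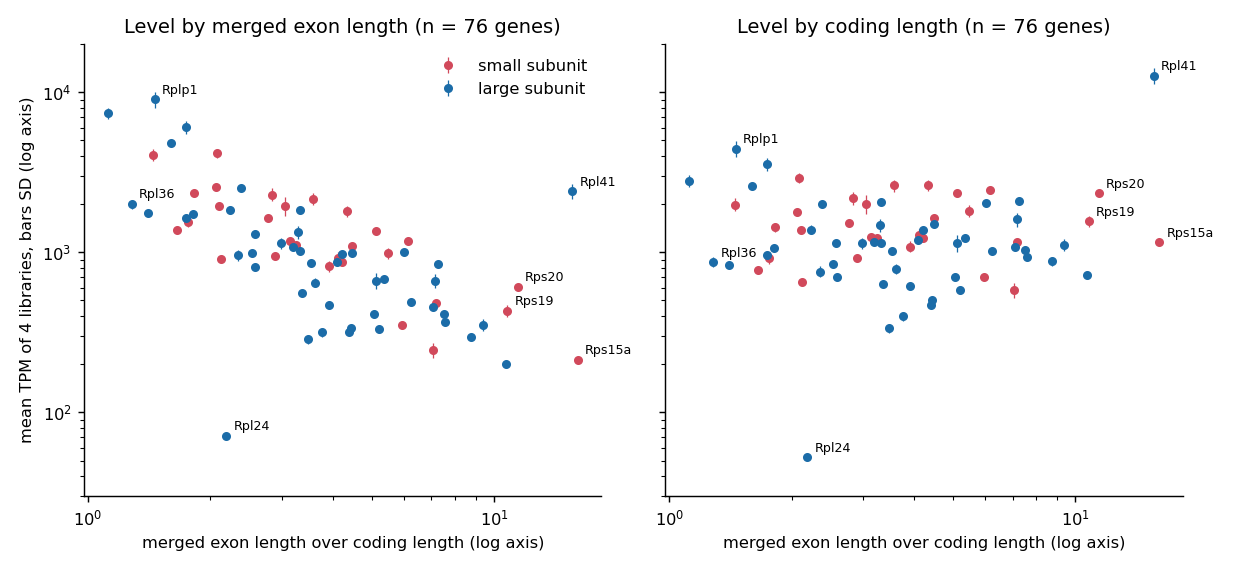
Mean TPM (points, bars SD of 4 libraries, log axis) against the ratio of merged exon length to coding length (log axis) for 76 members, by merged length on the left and by coding length on the right. On the left the levels fall with the ratio (r = -0.63) and on the right they do not (r = 0.06), with Rpl24 lowest in both panels.

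Between these scales Rps20 moved furthest, from rank 55 by merged length to rank 10 by coding length. Its level was 609 ± 28.1 TPM on the first scale and 2343 ± 109 on the second, but by the spliced length of its principal transcript it was 423 ± 20.1 TPM, rank 74 of the 87 members. Rps19, with 4685 merged and 435 coding bases, moved from rank 61 to 23. In the other direction Rpl36 moved from 13 to 57, Rpl17 from 19 to 59 and Rps7 from 24 to 61. Rpl36, the least inflated of these, has 404 merged bases for 315 coding bases. Rplp1, Rplp0, Rps2 and Rpl8 were among the 5 highest on both scales, and Rpl4 gave way to Rpl41 by coding length.

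Members named for the large subunit had a lower median than those of the small subunit. The log2 difference between the large and small subunit medians by merged length was -0.59, -0.74, -0.65 and -0.61 in replicates 1 to 4 (mean -0.65 ± 0.07, SD, n = 4), negative in every library. By coding length it was -0.44, and without the second genes of the pairs -0.40. The 4 values come from the same genes, so their agreement says nothing of genes outside the lists. The 3 highest members by merged length, Rplp1, Rpl8 and Rplp0, were large subunit genes all the same.

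Several ribosomal proteins have a second gene copy, and the levels were compared within 8 pairs. In every pair the first gene was higher in 4 of 4 libraries. An exact two-sided permutation test that flips the sign of each library's difference found 2 of 16 arrangements at least as extreme for each pair. This is the fewest possible with 4 libraries, so no pair could pass 0.05, with or without Benjamini-Hochberg adjustment over the 8 pairs. Rpl3l, known from muscle, and Rpl10l, known from testis, had 0 counts in every library. Set against the level that 3 counts would give, Rpl3 was at least 11239-fold higher than Rpl3l and Rpl10 at least 5539-fold higher than Rpl10l.

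In 6 pairs both genes were at 1 TPM or more in every library, and in 4 of these the second gene held over 10% of the pair's TPM by merged exon length. Rpl36a measured 331, 311, 352 and 335 TPM and Rpl36al 204, 188, 208 and 212 TPM, so the second gene held 37.9% ± 0.669 of the pair's TPM. By coding length it held 33.3% and by principal transcript length 31.5%. Rps27 measured 867, 906, 890 and 960 TPM and Rps27l, a gene induced by p53, 486, 514, 469 and 456 TPM, so Rps27l held 34.7% ± 1.84. By coding length its share was 29.4% and by principal transcript length 22.3%. Their coding lengths are the same, and Rps27l was lowest in the library where Rps27 was highest. In Rps27, 98.4% of windows also occur in another gene, against none in Rps27l. Such windows made up 83.6% in Rpl36a and 59.0% in Rpl36al. This limits how far the counts can be compared within both pairs.

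Rpl22 measured 347, 376, 374 and 363 TPM, and Rpl22l1, known to be controlled by Rpl22, 103, 133, 112 and 128 TPM. The share of Rpl22l1 was 24.5% ± 1.81 by merged exon length, 18.9% by coding length and 16.0% by principal transcript length. Rpl7 measured 1812, 1761, 1888 and 1922 TPM and Rpl7l1, whose protein works in ribosome assembly, 249, 263, 244 and 259 TPM, a share of 12.1% on average, and 12.8% by coding length and 10.6% by principal transcript length. In each of these pairs the ranges of the genes did not overlap. Windows shared with another gene made up 0% in Rpl22, 40.6% in Rpl22l1, 28.2% in Rpl7 and 2.23% in Rpl7l1.

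The last pairs had a rare second gene. Rpl39 measured 318, 388, 359 and 340 TPM, and Rpl39l, known from testis, 1.92, 3.06, 1.31 and 3.03 TPM from 57, 46, 24 and 38 counts. Rps4x measured 2379, 2658, 2581 and 2586 TPM, and Rps4l 6.41, 6.69, 11.4 and 8.51 TPM. The second gene held 0.658% ± 0.229 and 0.322% ± 0.0853 of the pair's TPM. By principal transcript length the shares were 0.425% and 0.230%, and by coding length that of Rpl39l was 0.382%. The first gene was higher in 4 of 4 libraries in these 6 pairs on each scale that gave a value.

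**Figure D3:**
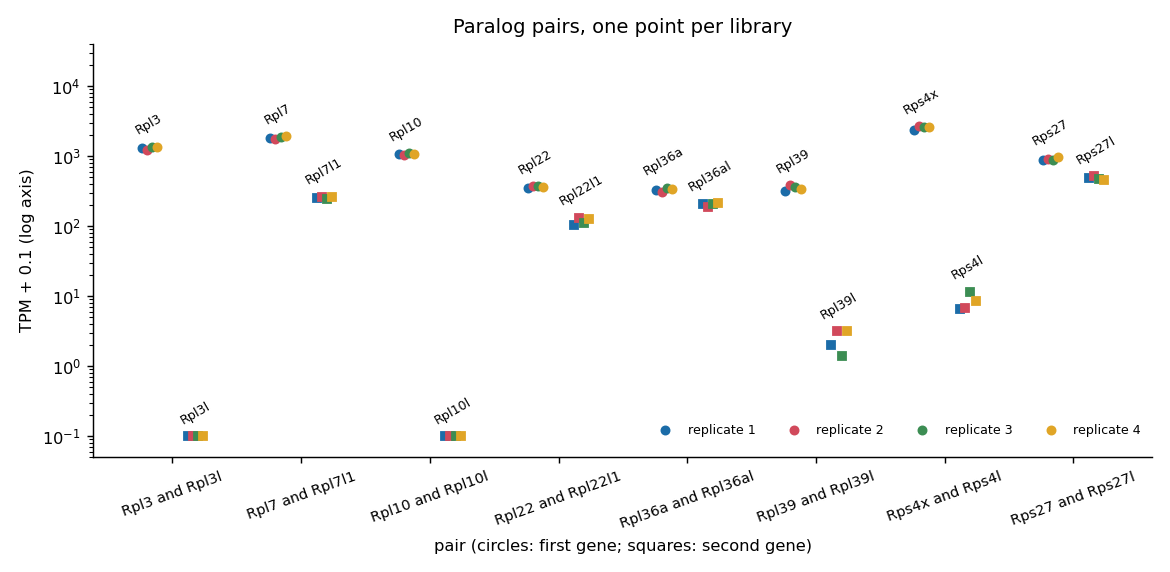
TPM plus 0.1 (log axis) of both genes of 8 pairs, 1 point per library, circles for the first gene and squares for the second. Rpl3l and Rpl10l lie at 0 counts, Rpl39l and Rps4l at a few TPM, and Rpl36al and Rps27l at 37.9% and 34.7% of their pair's total by merged exon length.

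Ribosomal protein genes have many processed copies in the genome, and the counting could split reads among them. Windows of 100 bases of the principal transcript that also occur in another annotated transcript were found in 77 of 87 members, with a median of 39.1% of a member's windows, and in 35 members 50% or more of the windows were shared. The files hold 282 rows named as pseudogenes of members, 221 of them with a count. Together they took 0.0190% ± 0.00164 of all counts, beside 5.05% for the members. This share leaves out pseudogenes that carry other names. Rpl29, for example, had 3 such rows but shared windows with 24 annotated pseudogenes. The highest, Rpl14-ps1, had 2737, 1626, 1826 and 1451 counts, 5.14% of the counts of Rpl14.

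Across the 76 protein-coding members outside the second genes of the pairs, log2 TPM by coding length was lower where more windows were shared (r = -0.44, n = 76 genes, as a description). By merged exon length, the main scale, the relation was weaker (r = -0.29). The 21 members with under 25% of windows shared had a median of 1644 TPM by coding length, and the other classes had medians of 1145, 913 and 1073 TPM with rising share. A read that fits several genes and is left out would lower a count, and the part of this in the levels was not tested. The file headers show no option for counting reads that map to several places.

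The levels of most members differed by small folds between libraries. The highest library of a gene was a median of 1.12 times its lowest over the 76 protein-coding members outside the second genes. Of these, 61 stayed under 1.2-fold, and neither value was computed over other genes. The largest ratio was 1.38, in Rps14, a protein of the platform of the small subunit, with 2175, 1580, 2018 and 2058 TPM. Over the members at 1 TPM or more on average the median CV was 5.29%, beside 7.99% over all such protein-coding genes, although members are more deeply counted than most.

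Whether a gene spread more than genes of its abundance was tested with edgeR as the ratio of a gene's quasi-likelihood dispersion to the prior expected at its abundance, and p-values were adjusted by Benjamini-Hochberg over all 13625 genes tested. Of the 87 members 84 were tested, and 0 passed an adjusted p of 0.05, against 1 gene of all tested (0.00734%). At an unadjusted p under 0.05, 4 of 84 members passed (Rps14, Rpl37a, Rplp1 and Rpl41), against 4.7% of all genes tested, and DESeq2 called 0 of 84 members as dispersion outliers, against 0.316% of all. limma-trend also called 0 members. The median ratio of dispersion to prior was 1.01 over the members and 0.878 over all genes tested, and 0.818 over the 653 genes in the middle range of the members' abundance. Ratios under 1 were found in 48.8% of the members and 55.6% of these 653 genes. By this measure the members were not steadier than genes of like abundance.

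Rps14 had the highest ratio, 6.74 (edgeR, unadjusted p = 0.0204, adjusted p = 0.965), and was low in replicate 2. Rpl37a had 5.22, with 710, 558, 735 and 654 TPM. Rplp1 also had 5.22, Rpl41 4.64 and Rps28 4.35, and all 5 were lowest in replicate 2. The steadiest was Rps24, a small subunit protein mutated in some patients with Diamond-Blackfan anaemia, at a ratio of 0.0550 with 1929, 1949, 1890 and 1965 TPM. Rpl7l1 (0.0818) and Rps25 (0.103) followed.

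**Figure D4:**
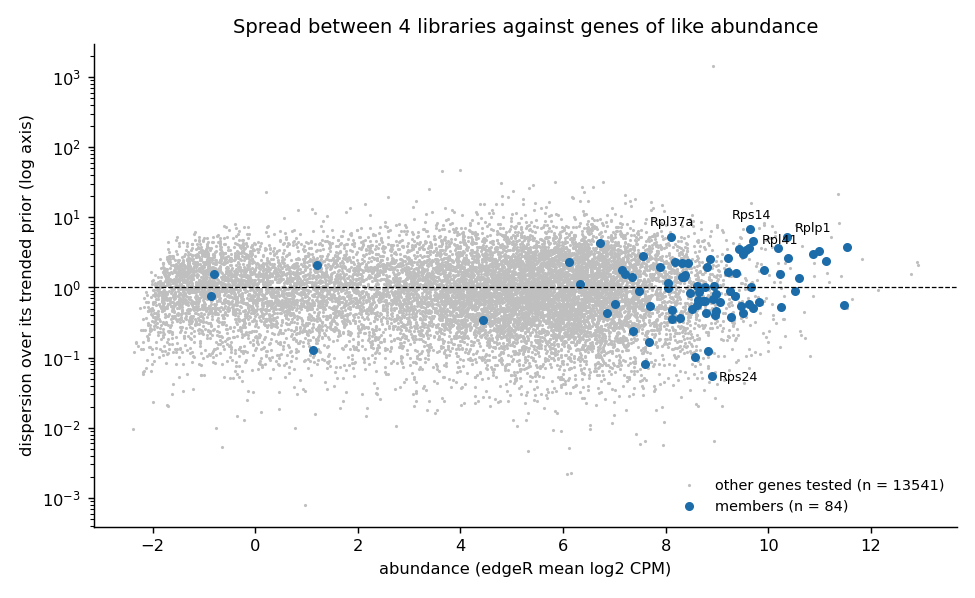
Ratio of edgeR's quasi-likelihood dispersion to its trended prior (log axis) against mean log2 CPM for all other genes tested (grey) and 84 members (blue). Members lie on both sides of 1, from 0.0550 in Rps24 to 6.74 in Rps14, and 0 of them passed the adjusted threshold.

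Members deviated together in single libraries. The median over 84 members of log2 CPM (TMM scaling) minus the mean of the 4 libraries was -0.00, -0.11, 0.07 and 0.03 in replicates 1 to 4, while that of all genes tested was within 0.01 of 0. Only 18 of 84 members were above their own mean in replicate 2, against 77 in replicate 3 and 70 in replicate 4. Of all 13625 genes tested, 6786, 7039 and 6758 were above theirs in replicates 2, 3 and 4. A gene's deviations sum to 0, so a low value in replicate 2 raises those of the other libraries. Both subunits moved alike, with medians of -0.12 in small and -0.10 in large subunit members in replicate 2. By TPM, 51 of the 85 members with a count had their lowest value in replicate 2, and the share over all genes was not computed.

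The deviations in replicate 2 varied with base composition, both in the members and over all genes tested. Across the 84 members the deviation in replicate 2 fell with the GC content of the transcript (r = -0.55, n = 84 genes, as a description), and across all genes tested r was -0.34. In the 21 members of lowest GC the median was -0.03, and in the 21 of highest GC -0.21, with all 21 below 0. All genes tested in the same GC ranges had medians of 0.09 and -0.12, so the members lay lower in both. In the 2 ranges between, the medians were -0.07 and -0.15 in members and 0.00 and -0.06 in all genes tested. A trend of GC and length over all genes was then removed, a step chosen after seeing the data. The members' median in replicate 2 was then -0.06, and 23 of 84 were above their mean, against 6564 of 13603 genes tested. Mitochondrially encoded genes took 0.529, 0.780, 0.692 and 0.603% of counts, highest in replicate 2. Whether the low values came from the cells or the libraries cannot be told apart with 1 library.

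**Figure D5:**
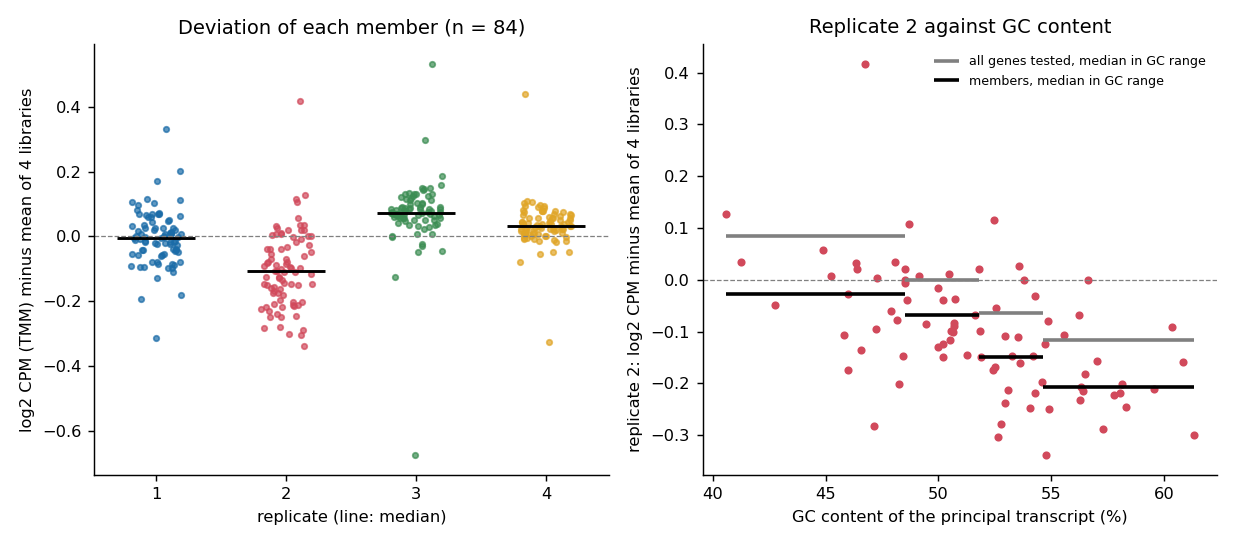
Left: deviation of each of 84 members from its mean over 4 libraries (log2 CPM, TMM), with the median as a line at -0.00, -0.11, 0.07 and 0.03. Right: the deviation in replicate 2 against GC content (%), with the median of members (black) and of all genes tested (grey) in 4 GC ranges, where the members' line lies below the grey one in each.

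Among the 18 members above their mean in replicate 2 was Rpl22l1. Its deviations were -0.19, 0.13, -0.04 and 0.11 in replicates 1 to 4, and at 40.6% it had the lowest GC content of the tested members. Rpl39 (0.11 in replicate 2), Rpl6l (0.12) and Rpl39l (0.42) were also above their means there. Rplp0, at 0.04, -0.24, 0.10 and 0.09, was among the 66 below.

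Of 4 further ribosomal protein genes outside the naming rule, all were expressed at 1 TPM or more in every library. By merged exon length Rps3a1 was highest at 2108 ± 118 TPM, ahead of Rack1, a scaffold protein of the small subunit, at 1502 ± 81.5 TPM. By coding length Rack1 was at 2723 TPM and Rps3a1 at 876 TPM, and by principal transcript length at 3352 and 1330 TPM, so the order turned. On the first scale, Fau, made as a fusion with a ubiquitin-like protein, measured 1742, 1368, 1710 and 1729 TPM, lowest in replicate 2 as most members were. Rps27rt was lowest with 20.3 ± 3.83 TPM, and lowest on the other scales too.

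The genes of 6 proteins that escort single ribosomal proteins to assembly were also read, without a comparison of each with its own client. All 6 were at 1 TPM or more in every library, with a median of 109 TPM by merged exon length, beside 906 TPM over the members. Aamp, which binds Rpl10, was highest with 157, 133, 147 and 156 TPM, and Tsr2, which binds Rps26, lowest with 32.1, 29.9, 32.7 and 31.4 TPM by merged exon length. By coding length Ltv1 was lowest, at 52.2 TPM against 70.2 for Tsr2. Of 8 regulators of the oligopyrimidine transcripts, 7 were at 1 TPM or more in every library. By merged exon length Larp1, which binds the start of these transcripts, was highest with 310, 308, 286 and 294 TPM. By coding length Eif4ebp2, an inhibitor of translation initiation, was at 1391 TPM and Larp1 at 214 TPM, and by principal transcript length at 659 and 195 TPM, so the order turned here as well. Eif4ebp3 was lowest on all 3 scales, with 1.05, 1.19, 0.549 and 1.16 TPM.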

How the data were processed

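The deposited files hold whole-number read counts per gene of GENCODE M13 in mm10, which the authors obtained by running featureCounts 1.4.6-p4 on read pairs with strand setting 2, per the file headers. The alignment step is not described here. The gene length used is the authors' merged exon length from the same files (another deposited value, not a measurement). Symbols were looked up by gene ID in a table of Ensembl IDs and names, which gave 50376 of 50600 genes a symbol. TPM was computed from counts and merged exon length, and coding and principal transcript lengths came from GENCODE M21. Members, lists and tests were chosen with earlier results of these data known. Named genes are the paralog pairs, the 5 highest and 5 lowest, the most and least variable, those with described roles, those whose rank moved most with the length used, and the highest and lowest of each list. Rows at 0 counts were given a floor of 3 counts for folds. The variation test used edgeR 4.0.16 (TMM, filter on low counts, intercept-only fit, robust prior), with DESeq2 1.42.0 and limma 3.58.1 as alternatives, in R 4.3.3, and was tested on simulated data. Other computing used Python 3.11.15, pandas 2.3.3, numpy 2.4.6, scipy 1.17.1 and matplotlib 3.10.9. Promoter sequences came from RefSeq on GRCm38.p6; a pseudocount of 0.1 TPM was used for log2 pair differences. Alternatives were other scalings, filters, thresholds, lengths and leaving out each replicate. Single values of a few genes are not reported here, although totals and counts over the members include every member.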

Additional observations from a re-analysis of the deposited data

Results flagged for a closer look

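Of 83 member levels examined, 4 stood apart, and so did 1 summary, from the other 3 libraries by more than the 95% limit of Dixon's test for 4 values, which chance passes in about 1 of 20 groups. In replicate 2, Rpl8 was at 6534 TPM, Rps10 at 727 TPM and Rpl27 at 287 TPM, each below the other libraries. The 5 highest members held 27.5% of the members' TPM in replicate 2, the lowest of the 4. In replicate 1, Rpl27a was at 451 TPM, the lowest of its 4 values.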

How the results depend on the processing

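No paired analysis was possible because the study has 1 group. Outside the paralog pairs, 46 of 56 values under alternatives stayed within set limits. These were the SD between replicates, 1.5 times a count or, for the pyrimidine run, the 95% interval of its share. The 46 include the counts of variable members, which were 0 under every setting. For the library shifts the limit was the SD of the shifts themselves. By that limit the change in replicate 2 from -0.11 to -0.06 with the GC and length trend removed was not a move. Of 31 pair values under another scale or pseudocount, all kept their direction but 24 moved by more than 1 SD, among them Rps27 over Rps27l from 0.91 to 1.80, Rpl22 over Rpl22l1 from 1.63 to 2.40 and Rpl36a over Rpl36al from 0.71 to 1.12 (log2) by principal transcript length. The pairs with Rpl3l and Rpl10l have no log2 value of their own, since both second genes are at 0 counts and the pseudocount sets it. The median member level was 434 as CPM, 1144 TPM by coding length, 1316 TPM by principal transcript length and 0.754 TPM with the rows named as pseudogenes added, since most of those have few counts; the large minus small subunit difference was -0.44 by coding length, -0.58 by principal transcript length, -0.35 as CPM and -0.40 without the second genes of the pairs. The pyrimidine run was in 18.4% of member entries when counted only from a C at the start base itself, and in 31.6% with at least 7 bases. Leaving out each replicate gave shares of 4.96 to 5.18%, medians of 888 to 919 TPM, subunit differences of -0.67 to -0.62, 84 members at 1 TPM and 0 variable members. Within pairs the log2 differences then ranged over 2.83 to 2.90 for Rpl7, 1.58 to 1.67 for Rpl22, 0.69 to 0.73 for Rpl36a, 7.0 to 7.41 for Rpl39, 8.18 to 8.45 for Rps4x and 0.86 to 0.94 for Rps27. All genes called as variable numbered 98 with no filter on low counts, 43 with DESeq2, 18 without replicate 2 and 2 without replicate 1, against 1. Coding length from RefSeq proteins was not run; GENCODE M21 coding length and the principal transcript length were chosen after seeing the data. Depth sets the floor for Rpl3l and Rpl10l at 0.0247 to 0.0583 CPM per library.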
